A study of Mus musculus with 8 samples.

Results

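Ndrg1 and 9 genes of the hypoxia-inducible factor (HIF) pathway were followed in kidney cortex of aged and young mice. The 10 genes were taken by symbol from the 22609 genes of the deposited count tables: Ndrg1, the HIF α subunits Hif1a and Epas1, the prolyl hydroxylases Egln1 and Egln3, and the HIF targets Vegfa, Adm, Bnip3, Pdk1 and Ankrd37. They were listed with the aged-against-young contrast of these mice already known, so their own contrast is a description, given without p-values. Calls of members, and whether they held when mice were left out, describe these values and are not independent support. All 10 passed the filter on low counts, which kept 13944 genes. The groups were 4 aged and 4 young male C57BL6 mice, labelled 30 and 5 months old. No treatment or genetic change is given for either group, and each library was total RNA of the cortex of 1 mouse, depleted of ribosomal RNA. Counts on genes ran from 14820804 to 19821429 per library and did not separate the groups (medians 18142772 aged and 17230184 young, two-sided exact permutation p = 0.943). Levels are CPM, counts scaled to a common library size, after TMM, a correction for library composition. Changes are log2 fold changes, aged over young, ± standard error (SE), and a gene was called where edgeR's adjusted p was below 0.05 and the fold change above 1.5.

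The library of aged mouse 1 stood apart from the other 7. On the first principal component of the tested genes, with 48.1% of the variance, it lay at -71.5, against -16.3 to 2.27 in the other aged mice and 21.6 to 26.2 in the young mice. Results that rest on it are given with and without it. Proximal tubule genes, which mark cortex, were high in every library: Lrp2, which encodes the endocytic receptor megalin, ran from 3855 to 11160 CPM, with aged mouse 1 the lowest.

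HIF is a dimer of an oxygen-controlled α subunit, encoded by Hif1a or Epas1, and a stable β subunit, encoded by Arnt. When oxygen is sufficient the prolyl hydroxylases mark the α subunit, the von Hippel-Lindau protein recognises the mark, and the subunit is degraded. When oxygen is short the α subunit persists and the dimer binds short DNA motifs in its targets. The kidney cortex is known for this pathway because its interstitial cells make erythropoietin under HIF control. Ndrg1, N-myc downstream regulated gene 1, is a cytoplasmic stress-response protein whose transcript is widely known to rise in hypoxia. Much of the control of HIF acts on protein stability, which RNA counts do not measure.

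The promoter sequences below belong to the members in which aged mouse 1 lay farthest above the mean of the other aged mice. These were Bnip3, Ankrd37, Egln3 and Pdk1. Egln1, a hydroxylase that was lower in all aged mice, is shown too. Each run is the 250 bases before the start of the gene, 5′ to 3′ on the strand of the gene, from RefSeq on GRCm38.p6. Capitals mark the HIF core motif, ACGTG or GCGTG, on either strand, so that its reverse complements CACGT and CACGC are in capitals too.
Bnip3: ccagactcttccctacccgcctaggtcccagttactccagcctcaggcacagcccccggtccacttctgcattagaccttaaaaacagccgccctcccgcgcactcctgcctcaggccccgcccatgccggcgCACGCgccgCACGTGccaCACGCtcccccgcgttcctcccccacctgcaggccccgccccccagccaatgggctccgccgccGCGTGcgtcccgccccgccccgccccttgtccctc
Ankrd37: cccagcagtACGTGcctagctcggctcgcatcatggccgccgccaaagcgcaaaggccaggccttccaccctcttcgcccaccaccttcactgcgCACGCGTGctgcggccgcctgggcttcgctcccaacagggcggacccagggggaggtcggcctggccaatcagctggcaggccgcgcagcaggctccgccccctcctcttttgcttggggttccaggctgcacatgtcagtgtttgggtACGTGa
Egln3: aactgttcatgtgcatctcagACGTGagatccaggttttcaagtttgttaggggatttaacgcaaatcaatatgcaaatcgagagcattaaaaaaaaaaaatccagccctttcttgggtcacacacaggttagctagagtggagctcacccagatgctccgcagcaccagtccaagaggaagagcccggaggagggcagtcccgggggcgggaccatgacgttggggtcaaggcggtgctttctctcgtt
Pdk1: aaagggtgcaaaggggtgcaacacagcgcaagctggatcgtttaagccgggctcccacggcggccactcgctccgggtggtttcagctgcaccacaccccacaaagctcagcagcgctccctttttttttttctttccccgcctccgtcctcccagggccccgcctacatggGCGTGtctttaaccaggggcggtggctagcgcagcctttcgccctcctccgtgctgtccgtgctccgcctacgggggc
Egln1: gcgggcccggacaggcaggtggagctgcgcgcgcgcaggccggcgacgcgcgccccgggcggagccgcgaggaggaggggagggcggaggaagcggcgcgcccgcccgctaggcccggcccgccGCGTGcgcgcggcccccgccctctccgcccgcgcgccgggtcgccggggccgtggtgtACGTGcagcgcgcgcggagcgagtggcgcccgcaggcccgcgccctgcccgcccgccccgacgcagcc
These windows lie at chr7:138909507-138909756 (minus strand, Bnip3), chr8:45999851-46000100 (minus strand, Ankrd37), chr12:54203875-54204124 (minus strand, Egln3), chr2:71872974-71873223 (plus strand, the first of the Pdk1 promoters) and chr8:124949255-124949504 (minus strand, Egln1). The Bnip3 window held 5 cores, of which 2 were the opposite strands of 1 CACGTG, the E-box bound by many other factors. The Ankrd37 window held 4, including 1 only 6 bases before the start, and the Egln1 window held 2. The Egln3 window and the Pdk1 window shown held 1 each, 229 and 78 bases before the start. Of the 10 members, 8 matched the promoter table, with 10 promoters, and Ndrg1 and Epas1 did not match. All 8 matched members had a core in at least 1 window, including Hif1a with 3 and Adm with 2. Of the 3 in Hif1a, 2 were the opposite strands of 1 CACGTG. Vegfa and Pdk1 each had a second promoter entry and only 1 of the pair held a core, so that 8 of the 10 promoters held one. These letters are common: 38.6% of all 32851 promoters of the table held either core, as did 53.7% of the 12577 promoters of genes tested here, and CACGTG alone was in 6.02% of all promoters. A match is a description of the letters and not evidence of binding.

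**Figure D1:**
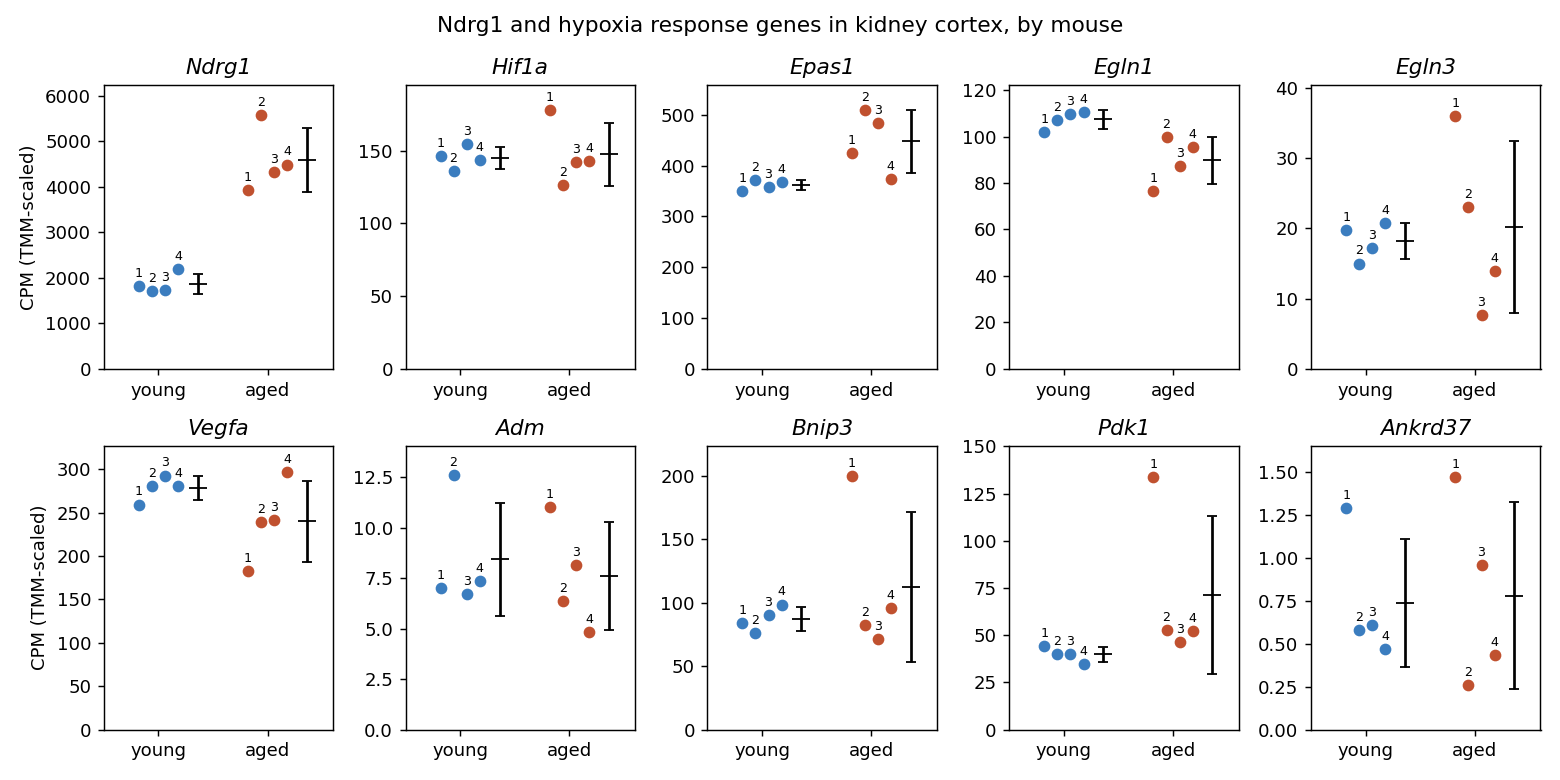
CPM of the 10 genes in each mouse, 1 panel per gene with its own axis from 0. Numbered points are mice, and the bars beside them are the group mean with the standard deviation (SD), n = 4 per group. Ndrg1 lay at 3937 to 5578 CPM in aged mice and 1712 to 2191 in young mice. In Bnip3, Pdk1, Egln3 and Ankrd37 aged mouse 1 was the highest of all mice. For Ankrd37 its lead was small, at 1.47 CPM against 1.29 CPM in young mouse 1.

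Ndrg1 was the member with the largest difference between the groups and the only one called. Aged mice 1 to 4 had 3937, 5578, 4327 and 4489 CPM. Young mice 1 to 4 had 1827, 1712, 1737 and 2191 CPM. Every aged mouse was above every young mouse, by a wide gap, and aged mouse 1 was the lowest of the aged. The means were 4583 ± 703 (SD, n = 4) aged and 1867 ± 222 young, a log2 fold change of 1.30 ± 0.15 or 2.46-fold. Without aged mouse 1 the change was 1.36 ± 0.13. The call was lost without young mouse 1 or young mouse 3, where 8 and 14 genes in all were called. Of all genes tested, 2.06% were called, 1.17% as higher in aged mice and 0.889% as lower. Since the contrast chose the genes, nothing is read from the 1 call among 10. The counts behind these values were large, 80308 to 85814 per aged mouse and 25550 to 37110 per young mouse, so that counting error was small beside the spread between mice. Ndrg1 alone took 0.476% of the counts on genes in aged mice and 0.180% in young mice, and it gained more CPM with age than any other gene tested. It is a gene of 16 exons on mm9 at chr15:66760883-66801202, minus strand.

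The genes whose profiles over the 8 mice were most like that of Ndrg1 were not members. Ranked by Pearson r of log2 CPM, they were Bard1 (r = 0.994), which encodes the partner of BRCA1 in a ubiquitin ligase, Pltp (0.989), the phospholipid transfer protein of plasma, Rarres2 (0.985), which encodes the secreted chemoattractant chemerin, Ccl6 (0.980), a chemokine, and Pgap2 (0.975), which acts in GPI anchor maturation. These r values carry the gap between the groups in part, and the genes were picked as the highest over all genes tested. Once each group's mean was removed, r was 0.940 for Bard1, 0.802 for Pltp, 0.719 for Rarres2, 0.610 for Ccl6 and 0.754 for Pgap2. Mean CPM went from 6.12 in young to 12.5 in aged mice for Pltp, from 14.9 to 24.6 for Rarres2, from 3.37 to 9.23 for Ccl6, from 1.09 to 1.70 for Bard1 and from 8.11 to 9.89 for Pgap2. Among the members Epas1 came nearest, at r = 0.809 and rank 510. Egln1 stood farthest, at r = -0.64 over all mice but 0.73 within groups. These 8 mice share 1 tissue and 2 ages, so the correlations are descriptions.

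The 2 α subunits differed in their profiles. Hif1a, which encodes HIF-1α (mm9 chr12:75002362-75048517, plus strand), had 178, 127, 142 and 143 CPM in the aged mice, in order of their numbers, against 146, 136, 154 and 144 CPM in the young mice. The groups overlapped fully, with aged mouse 1 highest and aged mouse 2 lowest of all 8. The means were 147 ± 21.8 and 145 ± 7.64 CPM, and the change of 0.02 ± 0.11 became -0.08 ± 0.07 without aged mouse 1. Epas1, which encodes HIF-2α, the form of endothelial and interstitial cells (chr17:87153247-87232750, plus strand), lay at 424, 509, 483 and 373 CPM in aged mice and 350, 371, 359 and 368 CPM in young mice. Here all aged mice were above all young mice, though aged mouse 4 only just. The means were 447 ± 61.1 and 362 ± 9.56 CPM, a change of 0.31 ± 0.11 that was not called. Epas1 was among the steadiest members in young mice, with a coefficient of variation of 2.64%, against 13.6% in aged mice. Per transcript length, Epas1 stood at 2.12, 3.58, 3.03 and 2.32 times Hif1a in aged mice and 2.13, 2.43, 2.07 and 2.28 times in young mice. These ratios overlapped, with aged mice 2 and 3 above the young range.

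The prolyl hydroxylases differed in how they spread between the mice. Egln1, which encodes PHD2, the main oxygen sensor of the pathway (chr8:127432496-127473154, minus strand), lay at 76.7, 99.8, 87.4 and 95.4 CPM in aged mice and 102, 107, 110 and 111 CPM in young mice. Every aged mouse was below every young mouse, with aged mouse 1 lowest. The means were 89.8 ± 10.1 and 107 ± 4.00 CPM, a change of -0.26 ± 0.09 that was not called. Egln3, which encodes PHD3, a hydroxylase that is itself a HIF target (chr12:55279968-55304847, minus strand), lay at 36.0, 23.0, 7.75 and 13.9 CPM in aged mice and 19.8, 15.0, 17.3 and 20.7 CPM in young mice. The aged mice held both the highest and the lowest values of the 8. The change was 0.15 ± 0.39 with all mice and -0.30 ± 0.31 without aged mouse 1, so its sign rested on that library. The ratio of Egln1 to Egln3 per transcript length therefore spread from 1.61 in aged mouse 1 to 8.54 in aged mouse 3, against 3.89 to 5.41 in young mice.

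The secreted targets were not called in either direction. Vegfa, which encodes the endothelial growth factor VEGF-A (chr17:46153942-46169326, minus strand), lay at 182, 239, 242 and 297 CPM in aged mice and 259, 281, 293 and 280 CPM in young mice. Aged mice 1 to 3 were below all young mice and aged mouse 4 was above them. The means were 240 ± 46.9 and 278 ± 13.9 CPM, a change of -0.21 ± 0.14, or -0.10 ± 0.09 without aged mouse 1. Adm, which encodes the vasodilator peptide adrenomedullin (chr7:117771175-117773331, plus strand), was scarce, at 11.0, 6.37, 8.17 and 4.85 CPM in aged mice and 7.02, 12.6, 6.73 and 7.38 CPM in young mice. Young mouse 2 was highest and the groups overlapped. The change was -0.15 ± 0.29, and it became -0.39 ± 0.27 without aged mouse 1 and 0.12 without young mouse 2.

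Bnip3, Pdk1 and Ankrd37 shared 1 feature with Egln3, a high value in aged mouse 1. Bnip3, which encodes a mitochondrial protein of mitophagy and cell death (chr7:146082519-146101202, minus strand), lay at 200, 82.6, 71.4 and 96.1 CPM in aged mice and 84.2, 76.1, 90.5 and 98.7 CPM in young mice. Aged mouse 1 was above all others, and the other 3 aged mice lay in or just below the young range. The change was 0.37 ± 0.30 with all mice and -0.07 ± 0.12 without aged mouse 1. Of the 100-base windows of the Bnip3 transcript, 45.7% matched another place in the genome at 98% identity or more, so its counts are uncertain. Pdk1, which encodes a kinase that switches off pyruvate dehydrogenase (chr2:71711281-71741915, plus strand), lay at 134, 53.0, 46.4 and 52.2 CPM in aged mice and 44.3, 39.8, 40.2 and 35.0 CPM in young mice. All aged mice were above all young mice. The change of 0.84 ± 0.32 was not called and became 0.34 ± 0.09 without aged mouse 1, when the 3 remaining aged mice averaged 50.5 ± 3.62 CPM. Ankrd37, which encodes an ankyrin repeat protein (chr8:47082256-47085221, minus strand), was near the limit of these libraries. It had 30, 4, 18 and 8 counts in aged mice and 21, 11, 9 and 8 counts in young mice, where 3 counts correspond to 0.151 to 0.202 CPM. Its change was 0.11 ± 0.54, or -0.38 ± 0.51 without aged mouse 1, and no difference was detectable at this depth. Across the 10 members, Ndrg1, Epas1, Egln1 and Pdk1 had groups that did not overlap, a pattern shared by 18.9% of all genes tested.

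**Figure D2:**
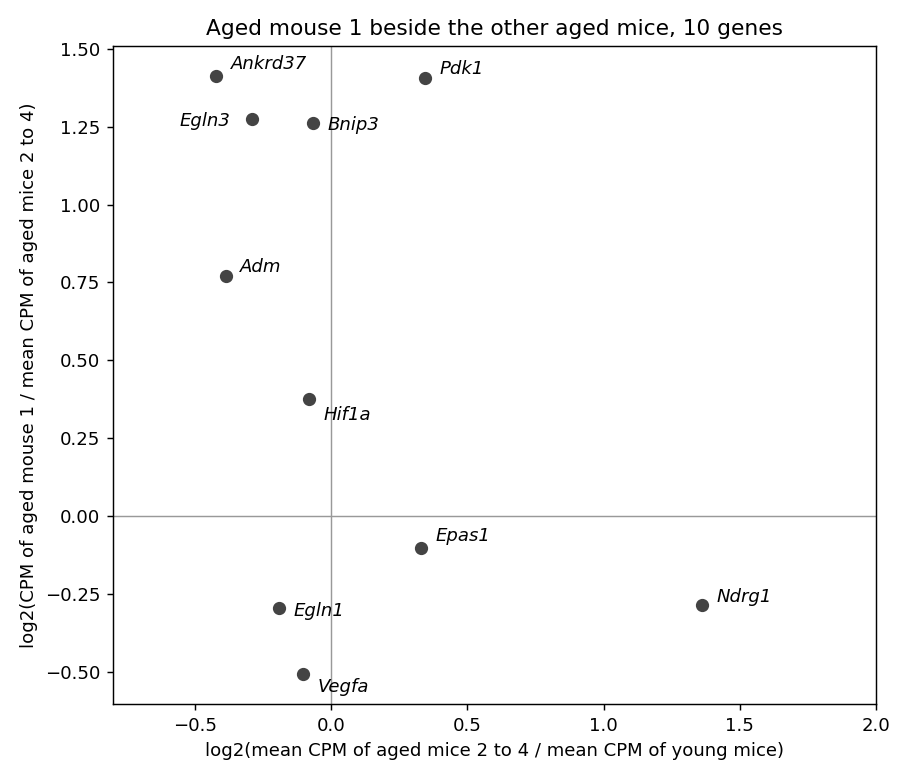
Each point is 1 gene, placed by the log2 ratio of the mean CPM of aged mice 2 to 4 to the mean CPM of the young mice (horizontal) and the log2 ratio of the CPM of aged mouse 1 to the mean of aged mice 2 to 4 (vertical). Ankrd37, Pdk1, Egln3 and Bnip3 lie at the top, at ratios of 2.40 to 2.66, and Ndrg1 lies alone at the right, below 0 on the vertical axis.

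Set against the mean of aged mice 2 to 4, aged mouse 1 was at 2.65 times that level for Pdk1, 2.66 times for Ankrd37, 2.42 times for Egln3 and 2.40 times for Bnip3. It was 1.71 times that mean for Adm and 1.30 times for Hif1a, and 0.932 times for Epas1, 0.821 times for Ndrg1, 0.814 times for Egln1 and 0.704 times for Vegfa. It was thus the highest aged mouse for 6 of 10 members and the lowest for 3, while over all genes tested it was highest for 33.6% and lowest for 35.5%. It was more than 2-fold away from aged mice 2 to 4 for 4 of 10 members and for 11.5% of all genes tested. Ndrg1 ran the other way, and was lowest among the aged mice in the library where Pdk1, Bnip3 and Egln3 were highest.

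Markers of other kidney regions moved with that library. The inner medulla and thin limb list averaged 6.35 in log2 CPM in aged mouse 1, while aged mice 2 to 4 were at 3.18, 2.87 and 2.76. The young mice were at 5.14, 2.68, 2.63 and 3.44, with young mouse 1 the highest. Slc14a2, the urea transporter of the inner medulla, was at 89.1 CPM in aged mouse 1 and 26.7 CPM in young mouse 1, at 0.106 to 0.327 CPM in 5 other mice and at 0 in young mouse 3. Cldn4, a tight junction protein, was at 47.9 CPM in aged mouse 1 and 5.88 to 12.4 CPM in the other mice. Aged mouse 1 was the highest aged mouse for 3 of the 4 genes of this list. Their summed level, 607 to 702 CPM in aged and 617 to 899 CPM in young mice, was mostly Aqp1, which proximal tubule cells also express. The 7 proximal tubule genes were all lowest in aged mouse 1, which summed to 10005 CPM against 22871 to 36208 in the other aged and 39304 to 45397 in the young mice. The gap between the groups in this sum was mostly Kap, an androgen-regulated kidney gene, at 928 to 14286 CPM in aged and 18450 to 24965 CPM in young mice. Without Kap, left out after its values were seen, aged mouse 1 summed to 9077 CPM, the other aged mice to 18854 to 21922 CPM and the young mice to 19140 to 23180 CPM, so that these ranges of the other aged and the young mice overlapped. Young mouse 1, second on the inner medulla list, had the highest young values of Pdk1 (44.3 CPM) and Ankrd37 (1.29 CPM, on 21 counts). Its 84.2 CPM of Bnip3 and 19.8 CPM of Egln3 lay inside the young range. The part of these markers in the values of the members was not tested. In bulk tissue, fewer cells of a type and less RNA per cell cannot be told apart. By the two-sided exact permutation test over mice, the proximal tubule list differed by -0.63 and the fibroblast and mural list by -0.51 (aged minus young), each with an unadjusted p of 0.0571. With 70 orders of the mice the smallest possible p is 0.0286, so a single list among 10 could not pass after adjustment, and the test says little about whether the lists differed.

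**Figure D3:**
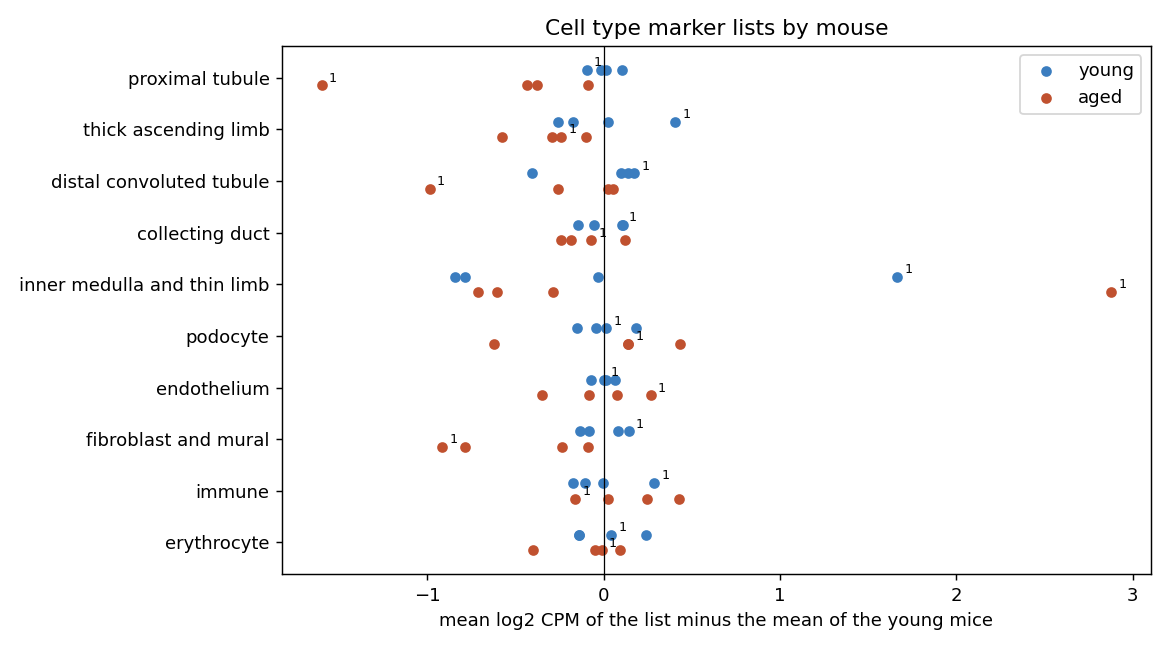
Mean log2 CPM of each marker list in each mouse, minus the mean of the young mice, with aged mice in red, young mice in blue and mouse 1 of each group numbered. Aged mouse 1 is farthest right on the inner medulla and thin limb list, at 6.35 before subtraction against 2.76 to 3.18 in the other aged mice, and farthest left on the proximal tubule list, at 9.79.

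Set per kilobase of transcript, so that genes can be compared, Ndrg1 led the members in both groups. It stood at 1588 ± 243 CPM per kilobase (SD, n = 4) in aged and 647 ± 76.8 in young mice, and no other member overlapped it. Among all genes with a length it ranked 8 in aged mice and 45 in young mice. In aged mice Epas1 (84.3 ± 11.5), Vegfa (68.1 ± 13.3) and Bnip3 (64.1 ± 33.7) followed, and Vegfa overlapped both of its neighbours. In young mice the order was Vegfa (78.9 ± 3.94), Epas1 (68.2, from 65.9 to 69.8) and Bnip3 (49.8 ± 5.45), with no overlap. Hif1a came next in both groups, at 31.2 ± 4.61 and 30.7 ± 1.62, and overlapped Egln1 at 25.6 ± 2.88 and 30.6 ± 1.14. Pdk1, Egln3 and Adm were lower, at 13.8 ± 8.07, 7.58 ± 4.62 and 5.48 ± 1.92 in aged mice, and in both groups Egln3 overlapped Pdk1 and Adm. Ankrd37 was last in both groups, at 0.844 ± 0.591 and 0.798 ± 0.404. Ndrg1 stood at 17.1, 20.1, 16.5 and 22.1 times Epas1 per length in aged mice and at 9.61, 8.49, 8.91 and 10.9 times in young mice, with no overlap.

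The rest of the pathway, 95 genes listed by role, was set beside the members. These lists too were chosen with earlier results of these data known, so their shares and p-values are descriptions and not independent support. Of the 95 genes, 92 passed the filter. By edgeR's adjusted p over all genes, 5 were called (5.43%, beside 2.06% of all genes tested), 3 higher and 2 lower in aged mice. Their median log2 fold change was -0.02, against 0.03 over all genes tested, and 45 of the 92 were above 0. The groups did not overlap for 26 of the 92 (28.3%, beside 18.9%). Without aged mouse 1, 10 were called, beside 3.17% of all genes tested. Among them were the same 5 genes, with Figf, Hk2 and Stc2 higher and Pfkfb3 lower in aged mice. None was called when any 1 young mouse was left out, but then only 8 to 35 of all genes were called (0.0567% to 0.248%). Without aged mouse 2 only Apln was called, 1.09% of the 92 beside 0.845% of all genes tested.

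The machinery that senses oxygen and carries the signal gave no call among 14 genes by edgeR, DESeq2 or limma-voom. These called 2.06%, 6.26% and 3.46% of all genes tested. By edgeR 4 of the 14 (28.6%) had an unadjusted p below 0.05, beside 25.5% of all genes tested. Of these, Cul2, which encodes the scaffold of the von Hippel-Lindau ubiquitin ligase, passed the adjusted p without the fold threshold (2.95% of all genes did so). It lay at 39.0, 41.9, 41.3 and 49.0 CPM in aged and 62.5, 57.8, 62.1 and 64.8 CPM in young mice, with no overlap (change -0.53 ± 0.09, edgeR adjusted p = 0.0268). That p rose above 0.05 without aged mouse 2 or 3 or any 1 young mouse, where it was 0.0546 to 0.102, and without aged mouse 4 the gene was called (-0.60, adjusted p = 0.00585). Vhl, the subunit that recognises hydroxylated HIF, was at 22.4 ± 3.63 CPM in aged and 24.4 ± 0.834 CPM in young mice (-0.12 ± 0.12, adjusted p = 0.528). Arnt, the β subunit, was at 71.7 ± 3.27 and 64.6 ± 2.93 CPM (0.15 ± 0.07, adjusted p = 0.210). Hif3a, another α subunit, was at 15.3 CPM in aged mouse 1 and 1.56 to 4.18 CPM in the other 7 mice (adjusted p = 0.304). The median change of the list was 0.12.

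None of the 3 other NDRG genes was called by edgeR, DESeq2 or limma-voom, which called 2.06%, 6.26% and 3.46% of all genes tested. By edgeR 0 had an unadjusted p below 0.05, beside 25.5% of all genes tested. With only 3 genes, nothing is read from these counts. Ndrg2, a differentiation-linked relative, was at 126 ± 29.1 CPM in aged and 120 ± 15.8 CPM in young mice. Ndrg3 was at 69.8 ± 7.78 and 75.0 ± 3.83 CPM. Ndrg4 was at 14.1 CPM in aged mouse 1 but 0.708 to 1.36 CPM in the other 7. Their adjusted p values were 0.827, 0.502 and 0.265.

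Of the 9 genes that control pyruvate dehydrogenase, the gate from glycolysis to the mitochondrion, 4 (44.4%) had an unadjusted edgeR p below 0.05. The share over all genes tested was 25.5%. Only Pdk3 was called (11.1%, beside 2.06% of all genes tested). This relative of Pdk1 fell, from 74.4, 57.2, 62.9 and 74.3 CPM in young mice to 19.6, 30.3, 22.5 and 46.9 CPM in aged mice (change -1.17 ± 0.25, edgeR adjusted p = 0.0472). No aged mouse reached the young range. Pdk4, a kinase that is known to rise in fasting, was at 891 CPM in aged mouse 1 and 24.9 to 60.7 CPM in the other aged mice, against 14.1 to 29.4 CPM in young mice. It was not called (3.60 ± 1.13, adjusted p = 0.0998), nor without aged mouse 1 (1.04 ± 0.32, adjusted p = 0.0856). Pdk2, another kinase of the family, was at 316 ± 97.4 and 263 ± 14.9 CPM.

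Glucose uptake and glycolysis gave no call by edgeR among 18 genes tested, with a median change of -0.07 and 5 genes (27.8%, beside 25.5% of all genes tested) at an unadjusted p below 0.05. DESeq2 and limma-voom each called 1, Hk2, where they called 6.26% and 3.46% of all genes tested and edgeR 2.06%. Hk2, a hexokinase that starts glycolysis, was at 9.71, 2.86, 2.35 and 4.85 CPM in aged mice and 1.54, 1.11, 0.884 and 1.71 CPM in young mice. These did not overlap, but the adjusted p of 0.0611 missed the threshold (1.91 ± 0.47). Without aged mouse 1 it was called, at 1.35 ± 0.32 and an adjusted p of 0.0478. Pgam1, a phosphoglycerate mutase, had an adjusted p of 0.0597 at -0.47 ± 0.11, but 94.4% of its windows had a near-identical copy. Pgk1, a phosphoglycerate kinase, was at -0.34 ± 0.11 (adjusted p = 0.112, with copies of 95.4% of its windows), and Aldoc, an aldolase, at 1.12 ± 0.41 (adjusted p = 0.139). Eno1, at 0 counts in every mouse, was not tested, and 84.9% of its windows had near-identical copies. Such copies also covered 87.3% of the windows of Gapdh and 63.4% of those of Gpi1, so the counts of these genes are uncertain.

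Among the other HIF targets, 34 of 36 genes passed the filter. By edgeR 4 were called (11.8%, beside 2.06% of all genes tested), 3 higher and 1 lower. An unadjusted p below 0.05 was found for 17 (50%), beside 25.5% of all genes tested. The list was chosen with earlier results of these data known, so nothing is read from these shares. Edn1, which encodes the vasoconstrictor endothelin-1, rose from 1.17, 1.27, 1.22 and 0.945 CPM in young mice to 5.44, 3.90, 3.79 and 2.29 CPM in aged mice (change 1.74 ± 0.28, edgeR adjusted p = 0.0267). Cxcl12, a chemokine that guides CXCR4-bearing cells, rose from 132 ± 7.93 to 211 ± 32.9 CPM (0.68 ± 0.12, adjusted p = 0.0313). Trf, which encodes the iron carrier transferrin, rose from 22.0 ± 3.61 to 64.8 ± 33.8 CPM (1.56 ± 0.34, adjusted p = 0.0490), with aged mouse 1 at 108 CPM the highest. P4ha1, which encodes a collagen prolyl hydroxylase, fell from 108 ± 14.9 to 57.6 ± 16.6 CPM (-0.91 ± 0.20, adjusted p = 0.0498). In all 4 genes the groups did not overlap, as in 13 of the 34 (38.2%, beside 18.9% of all genes tested). Epo was below the filter, at 0 to 9 counts per mouse.

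The growth factor and receptor partners of Vegfa and Adm gave no call by edgeR among 14 genes, with a median change of 0.09 and 2 genes (14.3%, beside 25.5% of all genes tested) at an unadjusted p below 0.05. DESeq2 and limma-voom each called 1, Figf, where they called 6.26% and 3.46% of all genes tested and edgeR 2.06%. Figf, which encodes the lymphatic growth factor VEGF-D, was nearest, at 14.9 ± 2.39 CPM in aged and 9.40 ± 1.83 CPM in young mice (0.66 ± 0.17, edgeR adjusted p = 0.0658), and it was called without aged mouse 1. Kdr, the main receptor of VEGF-A, was at 163 ± 16.4 and 155 ± 13.9 CPM (adjusted p = 0.659), and Flt1, its high-affinity decoy receptor, at 146 ± 22.1 and 128 ± 7.58 CPM (adjusted p = 0.310). Calcrl, the receptor of adrenomedullin, was at 39.7 ± 7.76 and 31.2 ± 2.42 CPM (0.35 ± 0.14, adjusted p = 0.170).

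**Figure D4:**
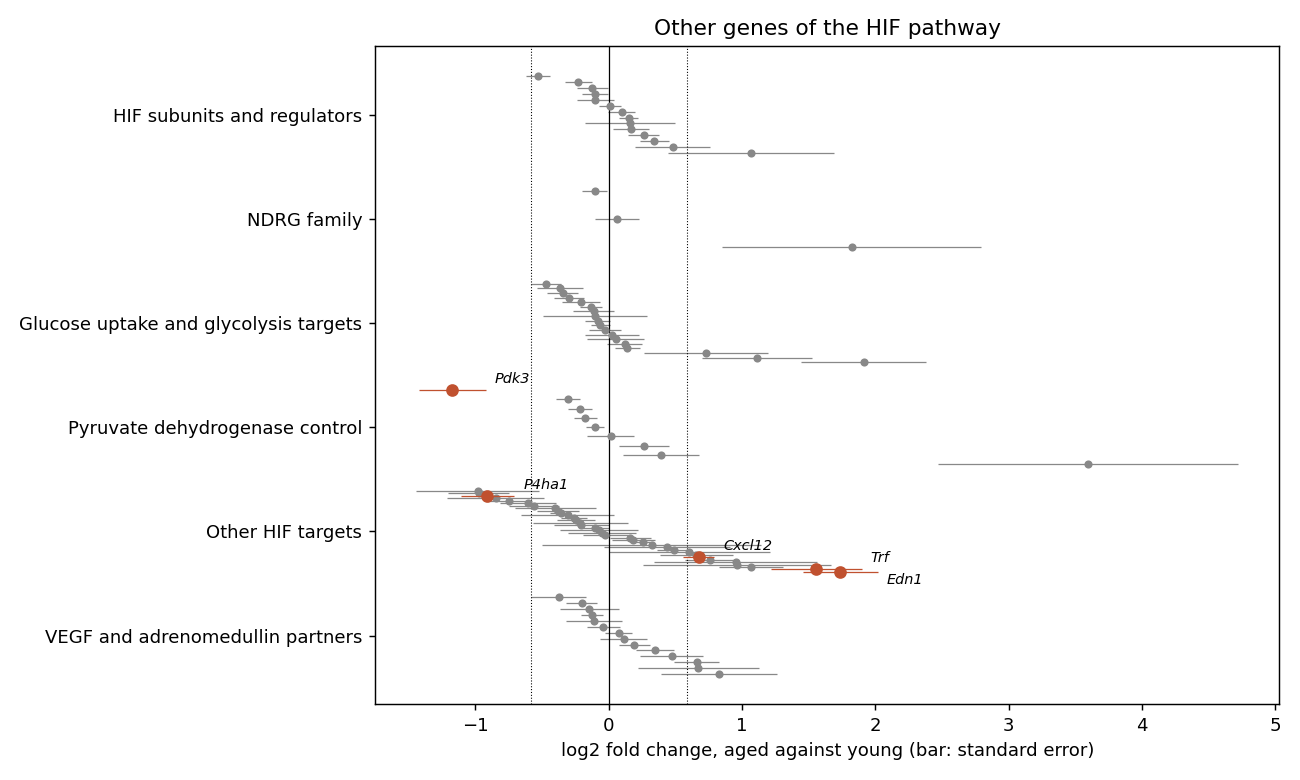
Log2 fold change, aged over young, of the 92 other pathway genes tested, grouped by list and ordered by size, with bars of 1 SE and dotted lines at a 1.5-fold change. Called genes are red and named: Edn1 at 1.74, Trf at 1.56 and Cxcl12 at 0.68 lie right of 0, and Pdk3 at -1.17 and P4ha1 at -0.91 left of it.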

How the data were processed

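RNA-seq of kidney cortex from 4 aged and 4 young mice was used. Per the labels and methods, stranded ribosomal-depleted libraries were read as paired ends on an Illumina HiSeq, base-called with CASAVA 1.8.2, and aligned with TopHat2 to mm9. The authors deposited raw HTSeq counts per RefSeq gene and mouse, whole numbers with no normalization. Lines that name no gene were left out; no-feature reads were 20.0% to 29.9% and non-unique reads 34.3% to 39.1% of each table. The 8 columns of a joint table were not used. Groups came from the labels. The labels give 30 and 5 months; the methods give a somewhat higher mean age for the aged group.

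Counts were tested in R 4.3.3 with edgeR 4.0.16 (TMM, filterByExpr with a minimum count of 10, quasi-likelihood test, Benjamini-Hochberg adjustment over 13944 genes; thresholds 0.05 and 1.5-fold). No FPKM filter was applied. Log2 CPM used a prior count of 2. DESeq2 1.42.0 and limma 3.58.1 were alternatives, with other scalings, filters, a replicate block and each mouse left out. The fit was tested on simulated data. Cell type marker lists were compared by mean log2 CPM and exact permutation. Lengths came from Ensembl models on mm9, and copies from BLAST 2.17.0. Motifs were found with Python 3.11.15.

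Members and gene lists were chosen with earlier results of these data known. The rule for naming took the members, called genes and the 4 smallest p of the glycolysis and other HIF target lists. It also took the 5 genes most like Ndrg1, and allowed any gene of the other 4 lists, of which some are named. Stc2, Pfkfb3, Apln, Ddit4, Angptl4, Ak4, Epo, Eno1, Gapdh and Gpi1 fell outside it and were named after their values were seen. Mice are the replicates, with 1 library each. The p-values weigh the difference between groups against the spread between mice, which includes differences in dissection and library. Floors of 3 counts cover counting error only.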

Additional observations from a re-analysis of the deposited data

Results flagged for a closer look

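Each group of 4 mice was searched for a mouse far from the other 3, by the gap to its nearest neighbour as a share of the range of the group, against Dixon's 95% limit. Of 40 groups tested, over members and marker lists, 4 passed, where chance gives about 2.

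Pdk1 was highest in aged mouse 1 (0.875), at 134 CPM against 46.4 to 53.0 CPM in the other aged mice. The inner medulla and thin limb list was highest in the same mouse (0.882), at 6.35 against 2.76 to 3.18 in log2 CPM. Adm was highest in young mouse 2 (0.854), at 12.6 CPM against 6.73 to 7.38 CPM. The distal convoluted tubule list was lowest in young mouse 4 (0.868), at 6.60 against 7.10 to 7.18 in log2 CPM.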

How the results depend on the processing

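Ndrg1 was the only member called with all mice and under each alternative except without young mouse 1 or young mouse 3, where none was, so that the number of members called was 0 to 1 when each mouse was left out. Its change stayed between 1.19 and 1.41 in all 16 alternatives. Epas1, Egln1, Vegfa and Pdk1 kept their sign in 16 of 16, Hif1a and Egln3 in 13, Bnip3 and Adm in 14, and Ankrd37 in 11 of 15. Library size alone, in place of TMM, moved the median of all genes from 0.03 to 0.14.

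The number of genes called over the table, 287, became 488 with library size alone, 873 with DESeq2, 483 with limma-voom and 8 to 733 with each mouse left out. The 5 other pathway genes became 10 with library size alone, 11 with DESeq2, 9 with limma-voom, 3 with at least 10 counts in every mouse, and 0 to 10 with each mouse left out. No other pathway gene was called when any 1 young mouse was left out, where 8 to 35 genes were called over the table. Fits without 1 aged mouse hold as many mice and called 115 to 733 genes over the table. The cause of this difference was not tested. No marker list passed in 9 alternatives, but with 35 orders of 3 against 4 mice, or 70 of 4 against 4, the smallest adjusted p of a single list is 0.286, so this says nothing about stability. Adjusted p of the 5 genes called ranged over alternatives from 2.5e-05 to 0.103 for Cxcl12, 2.9e-05 to 0.103 for Edn1, 0.000218 to 0.142 for Trf, 0.000351 to 0.132 for Pdk3 and 0.000977 to 0.145 for P4ha1. That of Cul2 ranged from 1.7e-05 to 0.102.

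The labels number the mice 1 to 4 in both groups and do not say whether the numbers pair the mice. Same-numbered mice had correlations of deviations from their group means of 0.206, 0.038, 0.199 and -0.030. Of the 4 aged mice, 3 correlated best with the young mouse of their own number. Whether mice of the same number shared a batch was not tested. With the number as a replicate block, 130 genes, 1 other pathway gene (Edn1) and 1 member (Ndrg1) were called, and the adjusted p of Cul2 was 0.0507.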

Other observations

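Several pathway genes outside the members had their highest value in aged mouse 1. Those named here were chosen after their values were seen. Ddit4, a stress-induced inhibitor of mTOR signalling, was at 60.5 CPM in that mouse and 8.66 to 18.9 CPM in the other 7. Angptl4, a secreted inhibitor of lipoprotein lipase, was at 297 CPM against 26.7 to 72.2 CPM. Ak4, a mitochondrial adenylate kinase, was lowest there, at 70.5 CPM against 179, 342 and 423 CPM in aged mice 2 to 4 and 397 to 635 CPM in young mice. None of these 3 was called by edgeR (adjusted p = 0.544, 0.345 and 0.217). Of the 92 pathway genes tested, aged mouse 1 was the highest aged mouse for 44 and the lowest for 26, against 33.6% and 35.5% of all genes tested.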
